A study of Mus musculus with 2 samples.

Results

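The genes described here encode the proteins of the cytosolic ribosome and their close paralogs, measured in mouse embryonic heart by total RNA-seq. Members were all protein-coding genes whose symbol was Rpl or Rps followed by a number, with or without the letters x, a, l or l1, together with Rplp0, Rplp1, Rplp2 and Rpsa, and without the Rps6k kinases. The rule found 83 genes among 43346 genes of the deposited files, of which 21474 were protein-coding. They comprised 46 genes of the large (60S) subunit, 30 genes of the small (40S) subunit and 7 paralogs, and the 76 genes of both subunits are called canonical below. The study held 1 group of 2 libraries, made from hearts of strain B6NCrl embryos at embryonic day 15.5 with both sexes pooled. Replicate 1 came from 78 embryos and replicate 2 from 62, so each value is the mean of a pool and the spread between embryos is not seen. Each library was made from 10 ng of RNA longer than 200 bases with added spike-in RNA. No treatment or second tissue was compared, and 2 libraries allow no exact test below p = 0.5, so levels and their spread over the libraries are given without tests.

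A ribosome joins a small subunit, which reads the messenger RNA, to a large subunit, which forms the peptide bond and holds the exit tunnel of the new chain. Each ribosomal protein is present in a single copy per ribosome, apart from the dimers of the acidic stalk proteins, so a growing tissue makes these proteins in matched amounts, largely at the level of translation and by degrading unassembled protein. Their mRNAs belong to the TOP class, which begins with a run of pyrimidines that links their translation to mTOR signalling. In mammals most of the genes are also the source of many processed pseudogenes, and a few have expressed paralogs with tissue-biased use. Rpl3l is the best known of these in striated muscle, while Rpl10l and Rpl39l are known from male germ cells.

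The sequences of 2 sets carry the results that follow. The first set shows why read assignment matters for these genes: the first 60 coding bases of Rps27, its intronless copy Rps27rt and its paralog Rps27l, with capitals marking bases that differ from Rps27, and the same stretch of Rpl3 and Rpl3l with capitals marking differences from Rpl3.
Rps27: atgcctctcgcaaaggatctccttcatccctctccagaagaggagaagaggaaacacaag
Rps27rt: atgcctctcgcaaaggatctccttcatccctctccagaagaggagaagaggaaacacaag
Rps27l: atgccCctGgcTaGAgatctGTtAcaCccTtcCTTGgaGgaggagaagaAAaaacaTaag
Rpl3: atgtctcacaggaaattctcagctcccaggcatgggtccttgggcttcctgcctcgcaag
Rpl3l: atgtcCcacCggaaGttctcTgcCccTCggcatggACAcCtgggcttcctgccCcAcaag

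Rps27rt was identical to Rps27 in this stretch, and the whole coding sequence of 255 bases of Rps27 was found in it. Rps27l differed from Rps27 at 18 of the 60 positions and Rpl3l from Rpl3 at 13. On mm10 Rps27 lies at chr3:90212522-90213651 on the minus strand, Rps27rt at chr9:114982366-114982739 on the minus strand and Rps27l at chr9:66946086-66949516 on the plus strand. Rpl3 lies at chr15:80077791-80091868 on the minus strand and Rpl3l at chr17:24727820-24736143 on the plus strand.

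The second set shows the starts of the genes. RefSeq promoter windows (build GRCm38.p6) were matched by symbol for 63 of the 83 members. Each line gives the 25 bases before the annotated start followed by 15 from the start onward, and capitals mark runs of at least 7 C or T letters.
Rpl13: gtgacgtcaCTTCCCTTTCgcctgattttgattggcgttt
Rpl18: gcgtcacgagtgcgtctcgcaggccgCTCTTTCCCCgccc
Rpl4: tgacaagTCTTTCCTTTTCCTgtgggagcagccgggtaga
Rps18: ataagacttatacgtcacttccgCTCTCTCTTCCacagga
Rps6: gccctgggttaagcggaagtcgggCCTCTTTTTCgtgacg
Rps27: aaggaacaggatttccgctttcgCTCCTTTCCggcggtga
Rpl22l1: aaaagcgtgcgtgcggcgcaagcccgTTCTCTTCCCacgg
Rpl36al: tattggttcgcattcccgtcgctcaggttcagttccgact

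The windows of Rpl13 (chr8:123102325-123102364, plus strand), Rpl18 (chr7:45718046-45718085, plus strand) and Rps18 (chr17:33955651-33955690, minus strand) each held such a run. So did those of Rpl4 (chr9:64173362-64173401, plus strand), Rps6 (chr4:86857353-86857392, minus strand), Rps27 (chr3:90213634-90213673, minus strand) and Rpl22l1 (chr3:28805483-28805522, plus strand). The window of Rpl36al (chr12:69184053-69184092, minus strand) held none. A run of 7 or more C or T letters within the 15 bases on either side of the start was found on the gene's strand in 33 of 63 members, or 52.4%. The share was 18.4% in the windows of 26962 other genes and 18.2% in those of 17428 other protein-coding genes. For a member the window nearest the start of its leading coding transcript was taken, and for other genes the first listed. The starts were thus not chosen alike, here and for the motifs that follow. The motif CCGGAAG, which has the core letters bound by ETS factors such as GABP, was searched on both strands of the whole window of 250 bases before and 50 after the start. It was present in 36.5% of members, 9.05% of all other genes and 11.8% of other protein-coding genes. AAGATGGC, the core letters of YY1 sites, was found on either strand in 7.94% of members and 2.87% of all other genes. TATAAA in the 50 bases before the start, on the gene's strand, was found in 1 of 63 members, Rpl22l1, and in 2.89% of all other genes. The reverse complement of CCGGAAG begins with pyrimidines, so its matches can overlap a C or T run. Among the 47 members whose annotated start lay within 50 bases of the start of the leading transcript, 44.7% held the C or T run. A match describes the window only.

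The heart identity of the libraries was checked on marker genes: the lowest of 5 cardiomyocyte markers (Tnnt2, Myh6, Myh7, Actc1 and Ttn) was Ttn, at 573 TPM in replicate 1 and 478 in replicate 2. TPM is the level of a gene per unit of transcript length, scaled to a fixed total per library. Red-cell genes were abundant, with alpha globin Hba-a2 at 54949 and 53347 TPM. Thymus markers had a median of 2.35 TPM in replicate 1 and 24.6 in replicate 2, and liver markers 4.36 and 34.4. All 4 germ cell markers were under 1 TPM. The libraries held 41221435 and 38457396 counts on genes, and 1 read on a transcript with an effective length of 1 kb was worth 0.0308 TPM in replicate 1 and 0.0345 in replicate 2. In tissue RNA, fewer cells of a type and less RNA per cell cannot be told apart.

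Nearly every member was expressed. At least 1 TPM was reached in both libraries by 81 of 83 members, compared with 58.2% of all protein-coding genes, and the exceptions were the paralogs Rpl10l and Rpl39l. Members held 3.69% of all TPM in replicate 1 and 3.41% in replicate 2. As a share of counts they held 1.69% (95% Wilson interval 1.68 to 1.69) and 1.55% (1.55 to 1.55), intervals that cover counting error only. TPM divides by length, so the short ribosomal mRNAs weigh more in TPM than in counts. The canonical genes lay on 19 chromosomes, with 14 of them on chromosome 7 and 4 on the X chromosome.

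Canonical genes lay within a narrower band than protein-coding genes at large. Their median was 432 TPM in replicate 1 and 398 in replicate 2, against 14.5 and 17.1 for all 12491 protein-coding genes at 1 TPM or more in both libraries. The interquartile range of log2 TPM was 1.14 and 1.22, against 2.79 and 2.61 for those protein-coding genes. Mitochondrial ribosomal protein genes, which form the other ribosome of the cell, had a median of 84.4 and 81.9 TPM with an interquartile range of 1.33 and 1.20 (n = 77). Proteasome genes, another large complex, had a median of 145 and 162 TPM and a range of 1.07 and 1.18 (n = 39). The interquartile range of the ribosomal genes was thus near that of these 2 complexes. The standard deviation of log2 TPM was 1.01 and 1.00 over canonical genes, 0.95 and 0.90 over mitochondrial ribosomal genes and 2.04 and 1.55 over proteasome genes. The proteasome set held every gene named Psma, Psmb, Psmc or Psmd with a number, down to 1.38 and 1.49 TPM. No paralogs were set apart there, unlike in the canonical set, so these sets were not chosen alike. Of the canonical genes, 57 of 76 lay within 2-fold of the median in each library. The median was 399 and 392 TPM for the large subunit and 441 and 409 for the small, and the standard deviation was 1.14 and 1.12 for the large and 0.75 and 0.78 for the small. The levels of canonical genes in the 2 libraries correlated across genes with Pearson's r = 0.98 and Spearman's rho = 0.96 (n = 76), as a description of genes that share the libraries.

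**Figure D1:**
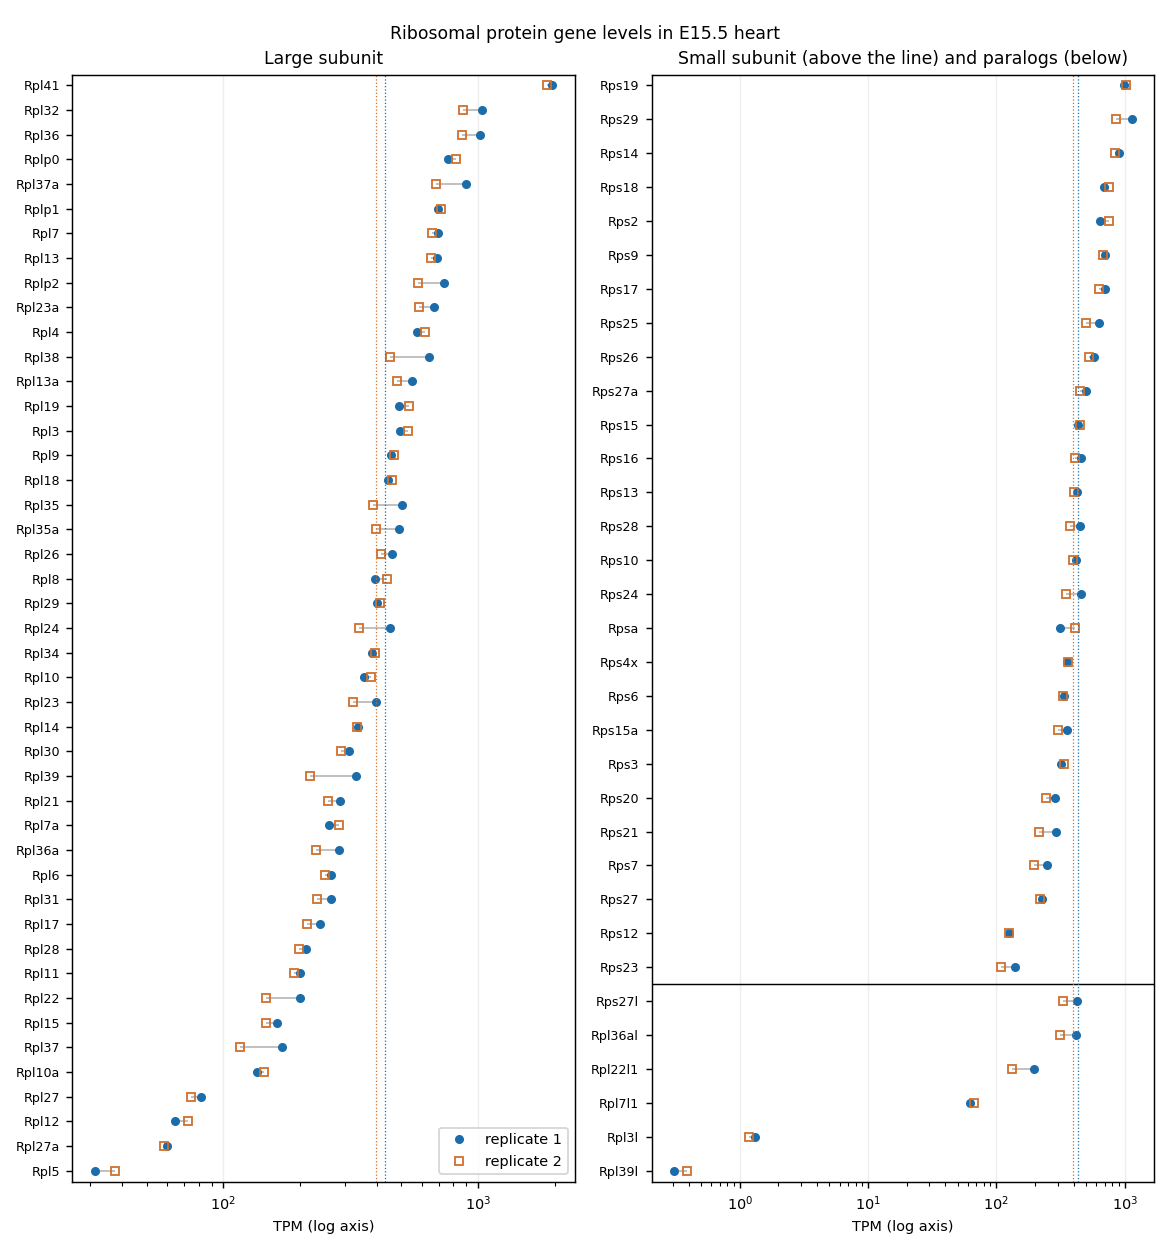
Each row is a gene, with TPM on a log axis as a filled circle for replicate 1 and an open square for replicate 2; dotted lines mark the medians of canonical genes, 432 and 398 TPM. Rpl41 stands above all others and Rpl5, Rpl27a, Rpl12 and Rpl27 form the low end of the large subunit; Rpl10l, at 0, and 4 genes not reported here are not drawn, and the x axes differ in range.

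The top of the large subunit was Rpl41, which encodes a very short basic peptide, at 1959.7 and 1862 TPM. This was 4.54 times the canonical median in replicate 1 and 4.68 times in replicate 2. Rpl32 followed at 1037 and 869 TPM and Rpl36 at 1018 and 865, both higher in replicate 1. Rplp0, the base of the stalk, was at 762 and 817 TPM and Rpl37a at 896 and 683. Among the highest of the small subunit, Rps29 was at 1130.4 and 854 TPM, Rps19 at 993 and 1021, Rps14 at 897 and 834 and Rps18 at 687 and 753. Of the genes named here, Rps19, Rps18 and Rplp0 were higher in replicate 2 and the others in replicate 1. The order of Rps19 and Rps29 reversed between the libraries, so these neighbours did not differ beyond their spread.

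At the other end, Rpl5, which carries 5S rRNA into the large subunit, was at 31.5 and 37.6 TPM, 13.7-fold and 10.6-fold below the median. Rpl27a was at 59.9 and 58.4 TPM, Rpl12 at 64.5 and 72.4, Rpl27 at 81.6 and 74.7 and Rpl10a at 136 and 145. The low end of the small subunit was Rps23 at 139 and 109 TPM and Rps12 at 125 and 125. Rps27 at 225 and 220 TPM, Rps7 at 249 and 197 and Rps21 at 292 and 213 came next. In both libraries 11 canonical genes were below 0.5 times the median and 6 were above 2 times it. The low genes were Rpl5, Rpl10a, Rpl11, Rpl12, Rpl15, Rpl22, Rpl27, Rpl27a, Rpl37, Rps12 and Rps23, and the high genes were Rpl32, Rpl36, Rpl41, Rps14, Rps19 and Rps29.

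Much of the low end lay in genes for which copies elsewhere in the genome held a large part of the reads. Copies were defined as pseudogenes or protein-coding genes outside the family with at least 90% identity to a member over at least 50% of the copy. There were 760 copies of 79 members, 743 of them processed pseudogenes, and 13 were annotated as protein-coding. Rpl3l, Rpl39l and Rps9 were among the members without a copy, while Rpl21 had the most, 60. In both libraries together 295 copies had no count, and 125 had a mean of at least 1 TPM. Copies took 15.3% of the counts of members and copies in replicate 1 and 15.4% in replicate 2.

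The copies with the highest values were mostly near-identical to their parents. Of the 25 copies at a mean of 100 TPM or more, 24 had at least 99% identity and 19 were identical to the parent over the aligned stretch. Gm15500, identical to Rpl5 over 1018 bases, stood at 349 and 378 TPM while Rpl5 itself was at 31.5 and 37.6. It lies at chr7:114705217-114706235 on mm10, a processed pseudogene annotated as transcribed, while Rpl5 lies at chr5:107900502-107909005. Rps23-ps1, identical to Rps23 over 425 bases, was at 749 and 640 TPM while Rps23, a protein of the decoding site, was at 139 and 109. Both copies exceeded their parents in each library. Gm14303, identical to Rps29 over 171 bases, was at 1323 and 832 TPM from only 3092 and 1737 counts. So short a model raises the TPM for a given count. Other copies with high values included Gm12918 of Rpl13 at 610 and 603, Rpl15-ps3 of Rpl15 at 493 and 513 and Gm7536 of Rpl27a at 346 and 287. RNA from a parent gene and from an identical copy cannot be told apart over the shared stretch.

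For 9 members more than 50% of the reads of gene and copies were assigned to copies in both libraries. The share was highest for Rpl5 (89.6% and 89.0%), Rps27 (85.8% and 82.3%) and Rpl27 (82.2% and 80.6%), followed by Rps23 (72.9% and 74.5%). In 26 members the share was above 10% in both libraries. Adding the reads of copies to the parent, over the parent's effective length, raised Rpl5 to 304 and 341 TPM, Rpl27 to 458 and 386 and Rps23 to 513 and 428. The standard deviation of log2 TPM over canonical genes was then 0.70 in replicate 1 and 0.71 in replicate 2, and 66 of 76 genes lay within 2-fold of the median in each library. Of the 11 low genes, 8 were no longer below 0.5 times the median in both libraries, and Rpl12, Rpl22 and Rpl27a still were. Genes above 2 times the median in both libraries were then Rpl13, Rpl41, Rps19, Rps27 and Rps29. For Rps27 the reads were divided by an effective length of only 156 bases, which raises its value with copies. The effective lengths of Rpl27a (999 and 985 bases) and Rpl12 (830 and 821) lower theirs. Their highest copies, Gm7536 and Gm10275, aligned over 444 and 634 bases. The copies' own TPM summed to 350 and 292 for Rpl27a and 205 and 219 for Rpl12, so their place below the cut depends on the length used. Rpl22, whose copies held 0.17% and 0.19% of its reads, was 201 and 147 TPM alone and 201 and 148 with copies.

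**Figure D2:**
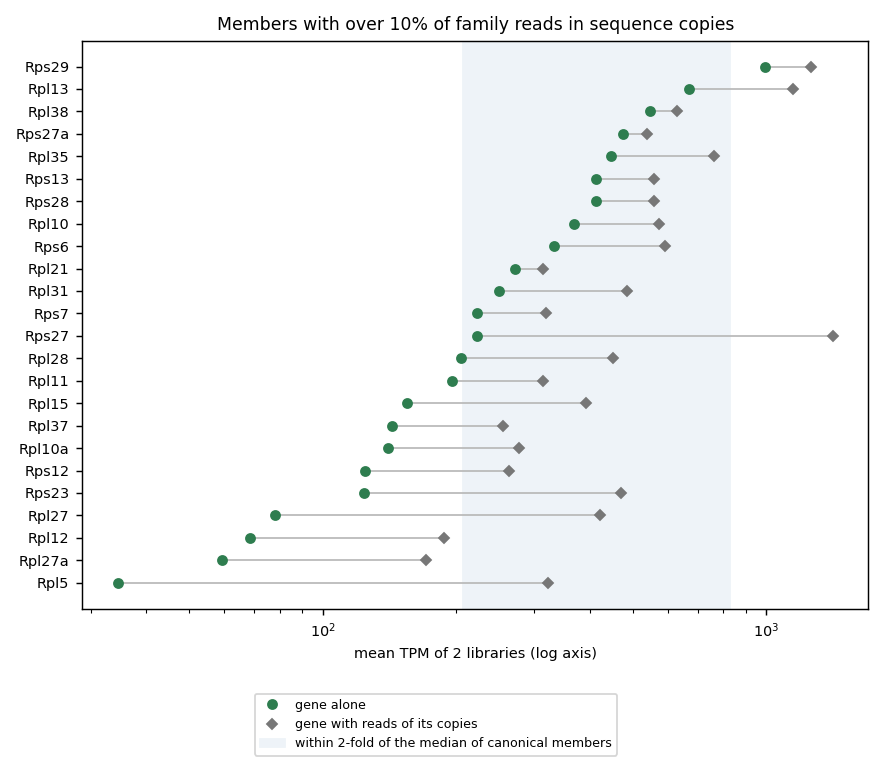
Mean TPM of 2 libraries on a log axis for 24 of the 26 members with over 10% of reads in copies, for the gene alone (circle) and with the reads of its copies added (diamond); the band spans 2-fold either side of the mean of the 2 canonical medians. Rpl5 moves farthest, and Rpl12 and Rpl27a stay left of the band after the addition, which divides the reads by the parent's effective length.

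The deposited uncertainty of the counts followed the same genes. For each member, every 100-base window of its leading coding transcript was searched for in transcripts of other genes. The median share of windows found elsewhere was 36.9%, 29 members had 50% or more and 12 had none. Rps27 had 98.4% of its windows in another gene, and its posterior standard deviation was 9.08% of the count in replicate 1 and 8.57% in replicate 2. Rps12 had 71.1% of its windows shared and a posterior standard deviation of 5.01% and 5.02%. Rps9 shared no window and had a posterior standard deviation of 0. Across canonical genes the 2 measures had Spearman's rho = 0.71 and Pearson's r = 0.55 (n = 76), as a description across genes. For canonical genes with under 5% of windows shared, the standard deviation of log2 TPM was 0.63 and 0.74 (n = 12), against 1.02 and 0.98 for those with 50% or more (n = 29). The 35 canonical genes between, with Rpl12, Rpl27, Rpl27a, Rps23 and Rpl41 among them, are in neither set. Over all 76 the standard deviation was 1.01 and 1.00, so the 2 sets do not show that spread rises steadily with sharing. Across all 76, log2 mean TPM and the share of windows had only Pearson's r = -0.23 and Spearman's rho = -0.19.

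**Figure D3:**
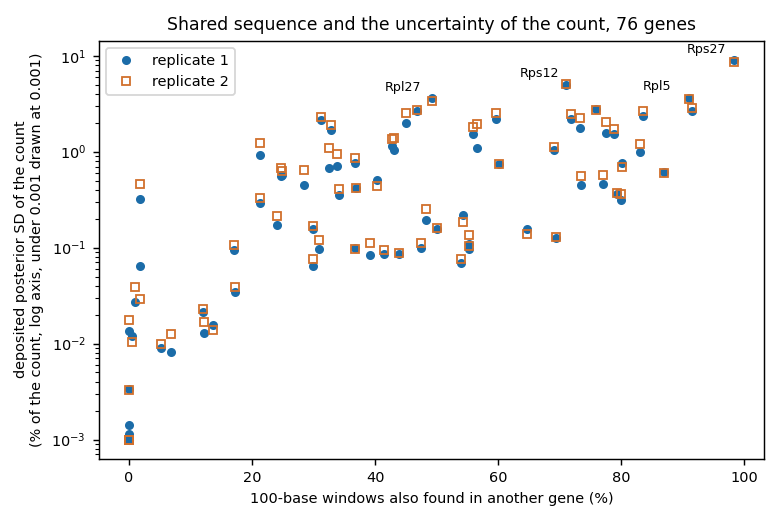
Share of 100-base windows of a gene also found in another gene (percent) against the deposited posterior standard deviation of its count (percent of the count, log axis), for 76 canonical genes in replicate 1 (circles) and replicate 2 (squares). Rps27 at the upper right has 98.4% of windows shared and the highest uncertainty.

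By role, the proteins of the peptidyl transferase centre and tRNA sites (Rpl3, Rpl4, Rpl8, Rpl10, Rpl10a and Rpl36a) had a median of 376 and 410 TPM. Rpl4, a core protein that reaches into the tunnel, was at 576 and 620 TPM, and Rpl10, which is added late in 60S maturation, at 357 and 380. Rpl10 reached 562 and 582 TPM with the reads of its copies. The stalk, which recruits elongation factors, was uneven. The acidic stalk proteins Rplp1 at 697 and 714 TPM and Rplp2 at 734 and 580 stood beside Rplp0, but the stalk-base protein Rpl12 was at 64.5 and 72.4. With the reads of its copies Rpl12 was at 183 and 191 TPM, still below the other 3. Proteins around the exit tunnel (Rpl4, Rpl17, Rpl19, Rpl23a, Rpl26, Rpl31, Rpl35 and Rpl39) had a median of 476 and 403 TPM. Of the 5S particle and Mdm2-binding group, Rpl23 was at 397 and 324 TPM, Rpl11 at 200.0 and 190.3 and Rpl5 lowest. With the reads of copies this order was lost, with Rpl5 at 304 and 341 TPM, Rpl11 at 310 and 319 and Rpl23 unchanged at 397 and 324.

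In the small subunit, the proteins of the decoding site and mRNA path (Rps2, Rps3, Rps15, Rps23, Rps26 and Rps28) had a median of 442 and 412 TPM. Rps2 at 638 and 756 TPM was their highest in both libraries. Rps23 was the lowest of them alone, but with the reads of copies it was at 513 and 428 TPM and Rps3, at 318 and 335, was the lowest. Rps6, the substrate of S6 kinase, was at 335 and 330 TPM alone and at 595 and 585 with the reads of its copies. Rpsa, also known as the laminin receptor precursor, was at 315 and 409 TPM. Rps27a, which is made as a fusion with ubiquitin, was at 499 and 449 TPM. Orthologs of 10 members that are known as Diamond-Blackfan anemia genes had a median of 459 and 394 TPM, close to the canonical medians, and ranged in mean TPM from 34.5 for Rpl5 to 1007 for Rps19. The low end depended on the copies. With their reads the mean of Rpl5 was 323 TPM, above Rpl11 at 314 and Rps7 at 319. Among 5 members known from mouse mutants with developmental phenotypes, Rps19 was highest at 993 and 1021 TPM and Rpl27a lowest at 59.9 and 58.4. Between them were Rpl38 at 640 and 453 TPM, Rpl24 at 451 and 341 and Rps20 at 285 and 246.

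Ribosomal proteins whose symbols fall outside the rule had levels in the same band. Fau, which gives Rps30, was at 307 and 285 TPM, Rps3a1 at 618 and 549 and Rack1 at 281 and 319. Of 14 translation factors and other proteins with TOP mRNAs, all reached 1 TPM, with a median of 198 and 214 TPM. The highest was the elongation factor Eef1a1 at 2364 and 2663 TPM, above every ribosomal protein gene, and its muscle and neuron paralog Eef1a2 was at 10.9 and 9.97. All 28 ribosome biogenesis factors on the list, which act on the precursor subunits and are not part of the finished ribosome, reached 1 TPM. Their median of 36.2 and 41.1 TPM was below that of the canonical genes.

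The paralogs ranged from absent to higher than their parents. Rpl3l was at 1.32 and 1.18 TPM, from 43 and 36 counts, with exact Poisson intervals of 31.1 to 57.9 and 25.2 to 49.8 counts. Its parent Rpl3 was at 493 and 529 TPM, so Rpl3 was 374-fold and 448-fold higher. The log2 ratio of Rpl3l to Rpl3 was -8.57 ± 0.18 (SD, n = 2 libraries), on the scale of log2 of TPM plus 0.1. Both libraries placed Rpl3l far below Rpl3 in this embryonic heart. The coding sequences, for Rpl3l the 1224 bases of Rpl3l-202, were 73.3% identical over 1227 aligned positions. Most of the TPM of Rpl3l, 80.4% and 66.2%, was on Rpl3l-201, a model of 1033 bases that is shorter than this coding sequence. Rpl3l-201 was also the transcript searched, and it had no copy and no shared window. The 6 skeletal muscle markers had a median of 4.00 and 4.03 TPM. Ckm and Acta1, which heart also expresses, were the highest of them at 1339.99 and 1019.7 TPM and at 152 and 147. Myod1 was at 0.09 and 0.26, Myog at 0.82 and 1.63, Tnnt3 at 3.96 and 3.77 and Tnnc2 at 4.04 and 4.29.

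The male germ cell paralogs were at the detection limit. Rpl39l had 7 and 8 counts (0.31 and 0.39 TPM), while Rpl39 was at 331 and 219 TPM. Their ratio was 1067 and 563, and with so few counts the exact Poisson intervals of Rpl39l were 2.81 to 14.4 and 3.45 to 15.8 counts. Rpl10l had no count in either library. With 3 counts as the limit that a count of 0 allows in each library, it was at least 3573-fold and 3396-fold lower than Rpl10. Both parents are X-linked, as are Rps4x and Rpl36a, and all 7 paralogs are autosomal.

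The remaining pairs had levels nearer to each other. Rpl7l1 was at 62.5 and 66.6 TPM, against 694 and 660 for Rpl7, and its coding sequence was 53.0% identical to that of Rpl7. The log2 ratio was -3.39 ± 0.12 (SD, n = 2). Rpl22l1 was at 195 and 133 TPM beside Rpl22 at 201 and 147, a log2 ratio of -0.10 ± 0.08 (SD, n = 2). As gene TPM over all transcripts, Rpl22 and Rpl22l1 thus stood level in both libraries, and both were lower in replicate 2. Transcripts annotated as coding held 61.75% and 74.63% of the TPM of Rpl22l1, but 96.37% and 94.72% of that of Rpl22. Rpl36al was at 416 and 315 TPM, above its X-linked parent Rpl36a at 284 and 231, with a log2 ratio of 0.50 ± 0.07 (SD, n = 2). Rps4l, which the reference annotation lists as a transcribed processed pseudogene and not as a member, was at 192 and 183 TPM beside Rps4x at 357 and 359.

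For Rps27l and Rps27 the order depended on the copies. Rps27l, a paralog known as a p53 target, was at 427 and 332 TPM and Rps27 at 225 and 220, a log2 ratio of 0.76 ± 0.23 (SD, n = 2). Rps27rt, which is annotated as protein-coding and carries the full Rps27 coding sequence shown above, was at 781 and 587 TPM. With the reads of the copies added to Rps27 it reached 1584 and 1239 TPM, and the log2 ratio of Rps27l to Rps27 reversed to -1.89. These reads were divided by the effective length of Rps27, 156 bases, and so short a length raises the TPM. With the TPM of the copies added instead, the log2 ratio of Rps27l to Rps27 was -1.26. The Rps27 model in the deposited files was 255 bases long, the length of its coding sequence alone, while 26 of 83 leading transcripts, with Rps27 among them, had a different length in the newer annotation. Rps27l shared no window with any other gene.

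**Figure D4:**
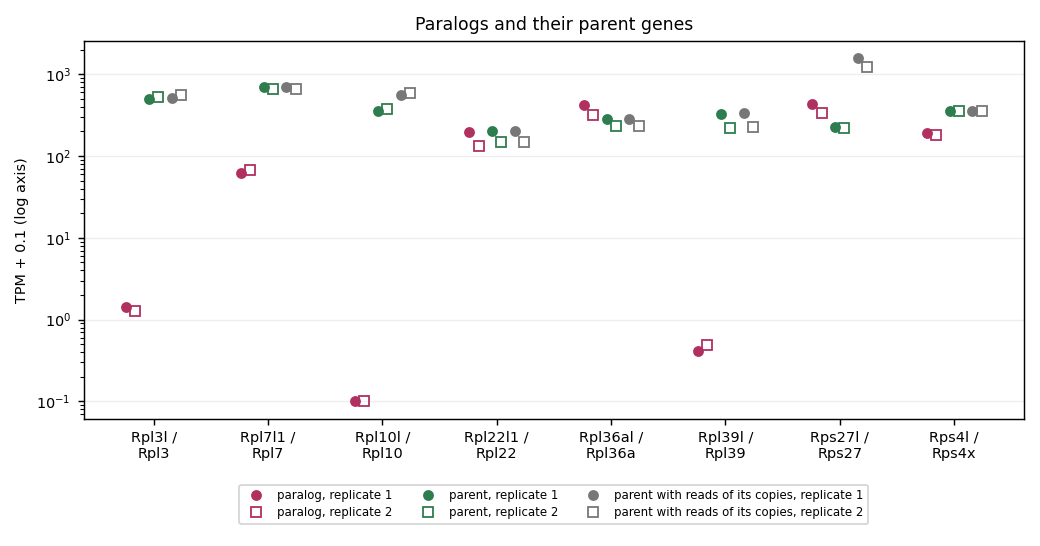
TPM plus 0.1 on a log axis for each paralog (left in each pair), its parent (middle) and the parent with the reads of its copies (right), with circles for replicate 1 and squares for replicate 2. Rpl3l, Rpl10l and Rpl39l sit far below their parents, and Rps27l lies above Rps27 alone but below Rps27 with its copies.

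Between the libraries, most members were lower in replicate 2, by an amount that depended on the scale. The log2 ratio of counts in replicate 2 over replicate 1, after TMM scaling, had a median of -0.33 over the 81 members with at least 10 counts in both, against -0.02 over all 17029 such genes. It was below 0 in 80 of 81 members, the exception being Rpsa at 0.14. Past 1.5-fold, 11 members were lower in replicate 2 and none was higher, 13.6% of members. Over all genes tested 4.74% were lower, 11.2% were higher and 15.9% differed in either direction. Past 2-fold there was no member, against 0.922% of all genes lower in replicate 2, 5.86% higher and 6.78% in either direction. On the TPM scale 56 members were lower in replicate 2 and 25 higher, with a median log2 ratio of -0.10 against 0.21 over all genes, and 1 member was past 1.5-fold. The members' median was 0.31 below that of all genes on both scales. These are differences between 2 libraries with no replicate of either, so they carry no test.

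The members farthest down were Rpl39 (log2 ratio -0.83, from 5508 to 3259 counts), Rpl37 (-0.79) and Rpl38 (-0.74, with 640 and 453 TPM). Rpl22l1 (-0.73), Rps21 (-0.69), Rps29 (-0.64), Rpl37a, Rpl24, Rpl36al, Rpl35 and Rps27l made up the rest of the 11. Rpsa and Rps2 (-0.00) were at the other end. The median over the paralogs with enough counts was -0.60 (n = 5), over the large subunit -0.33 (n = 46) and over the small subunit -0.32 (n = 30). Mitochondrial ribosomal protein genes had a median of -0.32 and proteasome genes of -0.13.

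The ratio moved with length. In members under 500 bases of mean transcript length the median log2 ratio was -0.47 (n = 17), and it was -0.42 in other protein-coding genes of that length (n = 107). From 500 to 700 bases the medians were -0.40 for members and -0.34 for others, and from 700 to 1000 they were -0.26 and -0.19. At 1000 bases or more the medians were -0.14 for 12 members and 0.01 for 13489 others. In each length range the members' median lay below that of other genes, by 0.05 in the shortest and 0.15 in the longest range, whereas the median of all members lay 0.31 below that of all genes. Across the 76 canonical genes the ratio and log2 length had Pearson's r = 0.49 and Spearman's rho = 0.47, and across 14623 other protein-coding genes 0.12 and 0.19. Thymus and liver markers were higher in replicate 2, as given above, and the part of length or of these cells in the members' difference was not tested. With spike-in scaling all 81 members were below 0, where the median of all genes was -0.85, and with total counts 64 of 81 were below 0, where the median of all genes was 0.16.

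**Figure D5:**
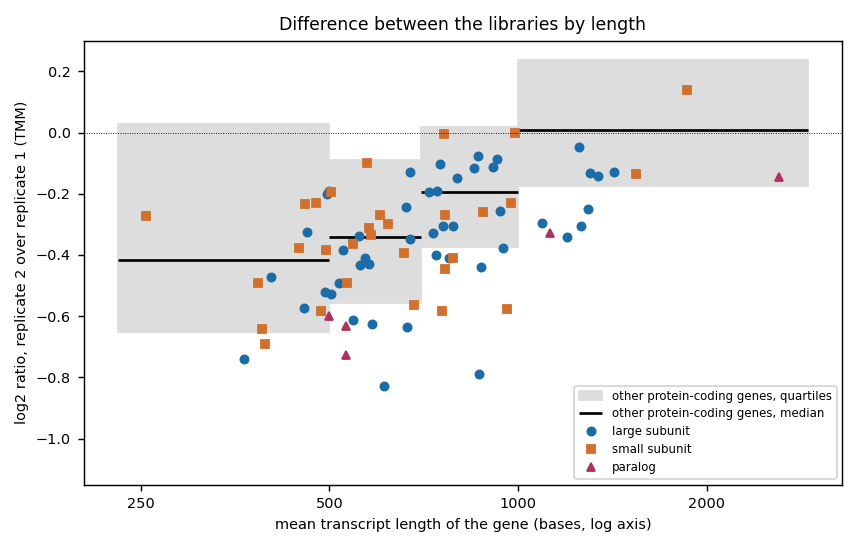
Log2 ratio of TMM-scaled counts, replicate 2 over replicate 1, against mean transcript length (log axis) for 81 members by subunit; grey bands and black lines give quartiles and medians of other protein-coding genes in 4 length ranges. The members' median is -0.47 under 500 bases and -0.14 at 1000 bases or more. The medians of the other genes there are -0.42 and 0.01, and Rpsa is the point above 0.

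Transcript use was alike in both libraries for most members. Of 82 members with counts, 20 had a single transcript in the files. Among the other 62, the leading transcript was the same in both libraries in 60, and it held over 90% of the gene's TPM in both in 25. Transcripts annotated as coding held 91.2% of the members' TPM in replicate 1 and 91.7% in replicate 2, and retained-intron transcripts held 2.79% and 3.02%. Transcripts with no match in the newer annotation, as in Rpl13a and Rpl18, were not counted as coding. Rps24, which has alternative C-terminal exons, was led by Rps24-201 with 97.5% and 93.8%, and Rps24-202 held 2.51% and 6.20%. The leading coding transcript of Rpl41 held 81.7% and 84.2%.

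A few genes departed from this. The leading transcript differed between libraries for Rpl23 and Rpl13a. In Rpl23 the non-coding Rpl23-204 held 62.5% and 46.5% and the coding Rpl23-201 held 36.7% and 51.8%. In Rpl13a no transcript reached 50%, and its leading transcripts had no match in the newer annotation. In Rpl5 the retained-intron transcript Rpl5-205 led with 48.6% and 54.3%, ahead of the coding Rpl5-201 with 36.7% and 31.9%. In Rpl12 the leading transcript Rpl12-201 is annotated as a target of nonsense-mediated decay and held 55.1% and 57.2%. Rps20 was led by a retained-intron transcript, Rps20-201, with 92.8% and 92.0%, and Rpl35 by a non-coding transcript with 87.1% and 87.1%. In Rps16 retained introns held 35.4% in replicate 1 and 11.5% in replicate 2. Rpl15, Rpl27 and Rpl38 had no transcript above 50% in at least 1 library. Coding transcripts of Rpl5 held 42.6% and 32.6% of its TPM, and those of Rpl12 held 29.9% and 25.6%. These percents cover only reads assigned to the gene itself. Copies held 89.6% and 89.0% of the reads of Rpl5 and its copies, and 64.8% and 62.1% for Rpl12. The percents of Rpl5 and Rpl12 therefore do not give the make-up of all their RNA. The other 9 genes below 0.5 times the median had coding shares from 67.2% to 100%, while Rpl35 and Rps20, at 5.33% and 6.26% in replicate 1, were not among the low genes.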

How the data were processed

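Total RNA-seq of embryonic heart was analysed as 1 group of 2 libraries, labelled biological replicates 1 and 2. Per the file headers, reads were assigned on mm10 with GENCODE M4; the quantifier was not given in those headers or labels. The deposited values were expected counts, TPM with its posterior mean, posterior standard deviations of counts, and each transcript's percent within its gene. Symbols, biotypes and positions came from GENCODE M21 (mm10) by gene ID, without version. Expected counts were rounded only for scaling with TMM (edgeR 4.0.16) or DESeq2 1.42.0 size factors. Log2 TPM used a pseudocount of 0.1. Copies were found with BLAST 2.17.0. Scaling and copy search were tested on simulated data. Genes named were the paralog pairs, stalk proteins, Rpsa and Rps27a, the 5 highest and 5 lowest of each subunit, the 3 farthest apart between libraries in each direction, role lists, and transcripts as listed; genes named for copies or motifs were chosen after their values were seen. Members and lists were chosen with earlier results of these data known. Alternatives covered pseudocount, posterior means, length, named pseudogenes, filters, scaling and leaving out each library. Values of some genes that the rule would name are not reported here.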

Additional observations from a re-analysis of the deposited data

How the results depend on the processing

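Under the settings run, the 1 value that changed sign was the log2 ratio of Rps27l to Rps27. It was 0.76 as reported, 2.12 without length normalization, and reversed to -1.26 with TPM and -1.89 with reads of sequence copies added, which adds Rps27rt to Rps27 by construction. The addition of copies was chosen after seeing the data. The median log2 TPM of canonical genes was 8.70 as reported, 7.56 as scaled counts without length, 8.84 with named pseudogenes added, 8.88 with reads of copies and 9.05 with their TPM. The standard deviation of log2 TPM was 1.01 as reported, 1.001 with a pseudocount of 1, 1.02 without length, 0.94 with named pseudogenes, 0.71 with reads of copies and 0.68 with their TPM. The members' share was 3.55% of TPM as a mean, 1.62% of counts, 3.93% with named pseudogenes and 4.58% with copies. Rpl3l to Rpl3 was -7.83 with a pseudocount of 1 and -8.77 without length, and Rpl39l to Rpl39 -7.65 and -8.53. Without length Rpl7l1 to Rpl7 was -1.46, Rpl22l1 to Rpl22 -0.66 and Rpl36al to Rpl36a 0.64. The median log2 ratio of the libraries was -1.16 with spike-in scaling, which moved all genes by -0.83, and total counts moved them by 0.17, and it was -0.10 in TPM, a scale added after seeing the data. Members past 1.5-fold numbered 2 with total counts, 1 in TPM and 81 with spike-ins, and 0 past 2-fold. Leading transcripts differed for 3 members by posterior means. With 1 library left out, the median ran from 8.64 to 8.75, the standard deviation from 1.003 to 1.009 and the share from 3.41% to 3.69%. Rpl10l to Rpl10 is a bound and was not recomputed. No paired analysis was possible because there was only 1 group.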
